A study of Mus musculus with 9 samples.

Results

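Bile acid synthesis and transport was described through 10 genes, all of them among the 55401 genes of the count table and all of them among the 15717 genes that passed the filter on low counts. They were chosen by symbol: the enzymes Cyp7a1, Cyp7b1, Cyp8b1, Cyp27a1, Akr1d1 and Hsd3b7, the conjugation genes Slc27a5 and Baat, and the transporters Slc10a1 and Abcb11. RNA was sequenced from whole livers of 9 female mice obtained at 6 weeks of age, with 3 livers in each of 3 groups. Healthy livers came from wild-type mice that received neither plasmids nor virus, and no collection time is given for them. In the other 2 groups, HCC (hepatocellular carcinoma) was induced by hydrodynamic tail vein injection, which reaches hepatocytes, with sleeping beauty plasmids carrying activated AKT (HA-myr-AKT, EF1α promoter) and NRAS (Nras-v12, Caggs promoter) and a plasmid for the SB11 transposase, the RAS/AKT model. The protocol also lists a plasmid for N90-β-catenin, which the study used in a different model. At 1 week these mice were given a single intravenous dose of AAV8, an adeno-associated virus that reaches hepatocytes, either blank (untreated HCC) or carrying miR-22 (miR-22-treated HCC), and livers were collected at 5 weeks, 4 weeks after the virus. The dose was a single one, and its size differs between the labels and the methods. For the strain, a label field has C57BL/6, whereas the protocol and the methods have FVB/N.

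Bile acids are made from cholesterol in hepatocytes. The classic pathway starts with 7α-hydroxylation by CYP7A1, and the alternative pathway with side-chain oxidation by CYP27A1 followed by 7α-hydroxylation by CYP7B1, while CYP8B1 adds the hydroxyl group that turns the product into cholic acid. The finished acids are activated to CoA esters, conjugated with taurine or glycine and pumped into bile, and most return from the ileum through portal blood to hepatocytes. FXR (Nr1h4), activated by bile acids, raises the export pump and lowers synthesis.

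The virus given to the treated mice carried miR-22. By the study's methods this was the 3p arm, mmu-miR-22-3p, whose mature sequence is shown with the seed, bases 2 to 8, in capitals, because the seed sets the sites the miRNA can pair with.
mmu-miR-22-3p: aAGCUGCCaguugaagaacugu
The mature sequence matched chr11:75354598-75354619 (GRCm39, plus strand) within the Mir22 gene. The DNA letters complementary to the seed, GGCAGCT, were found in the annotated 3′ UTR of the canonical transcript of 0 of the 10 bile acid genes, and in 16.9% of the 13559 tested genes with such a UTR. Those UTRs had a median length of 1339 bases, against 130 for Slc27a5, the shortest of the 10, and 9210 for Cyp7b1, the longest. Mature miR-22 itself was not measured here.

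Promoters of 300 bases around the start were held for 6 of the 10 genes in the RefSeq table of GRCm38.p6, with 7 starts, and are located here by exact match in GRCm39. Cyp7a1, Cyp7b1, Baat and Slc27a5 had no entry. The promoter of Abcb11 (chr2:69172911-69173210, minus strand) is shown for an inverted repeat of AGGTCA spaced by 1 base, the type of element bound by FXR. That of Cyp8b1 (chr9:121745322-121745621, minus strand) is shown for CAAAGTCCA, a site of the type bound by HNF4A, and that of the second Slc10a1 start (chr12:81014804-81015103, minus strand) for the nuclear receptor core site AGGTCA. Capitals mark these letters.
Abcb11: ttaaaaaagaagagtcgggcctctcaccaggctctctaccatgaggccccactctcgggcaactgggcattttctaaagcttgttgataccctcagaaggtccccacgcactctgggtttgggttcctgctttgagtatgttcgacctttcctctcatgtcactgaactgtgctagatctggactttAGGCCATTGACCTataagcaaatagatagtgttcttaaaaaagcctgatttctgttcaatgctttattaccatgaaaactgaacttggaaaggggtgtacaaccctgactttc
Cyp8b1: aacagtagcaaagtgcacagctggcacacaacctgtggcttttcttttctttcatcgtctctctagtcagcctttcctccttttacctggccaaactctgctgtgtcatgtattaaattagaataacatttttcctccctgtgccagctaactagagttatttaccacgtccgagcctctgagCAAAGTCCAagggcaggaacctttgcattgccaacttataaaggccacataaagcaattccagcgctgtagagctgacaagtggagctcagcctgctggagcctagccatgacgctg
Slc10a1: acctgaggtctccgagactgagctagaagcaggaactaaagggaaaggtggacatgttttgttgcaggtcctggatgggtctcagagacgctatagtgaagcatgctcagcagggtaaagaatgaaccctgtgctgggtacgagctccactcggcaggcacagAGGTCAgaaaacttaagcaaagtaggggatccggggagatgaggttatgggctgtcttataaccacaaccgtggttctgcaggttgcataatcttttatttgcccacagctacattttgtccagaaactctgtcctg
The inverted repeat in Abcb11 had 1 mismatch and began at position -63 from the start and ended in TGACCT, and 0.0822% of 32851 promoters of the same length held such a repeat with at most 1 mismatch. CAAAGTCCA, searched on both strands, was in 0.475% of promoters and in Cyp8b1 alone of the 6 genes. AGGTCA or its complement TGACCT was in 16.3% of promoters and in Abcb11, Akr1d1 and Slc10a1. Its extended form AAGGTCA, the type bound by NR5A2, was in 4.72%, and TTATGTAA, the D box, in 0.938%, with neither in any of the 6 genes. These matches describe letters in a window and do not show binding.

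Total counts ranged from 16664659 to 23908392 per library. TMM factors, which correct for library composition, spanned 0.866 to 0.872 (healthy), 1.12 to 1.22 (untreated) and 0.942 to 1.03 (treated). All levels are TMM-normalized CPM, read counts scaled to a common library size, and log2 fold changes are from edgeR. Scaling by library totals instead moved the median log2 fold change of all tested genes from 0.012 to 0.43 (untreated HCC over healthy livers), from 0.002 to -0.23 (miR-22-treated over untreated HCC) and from 0.022 to 0.21 (miR-22-treated HCC over healthy livers). The call split, which was 2842 lower and 3575 higher genes in the first comparison, 859 and 1308 in the second and 1108 and 2664 in the third, became 1492 and 5986, 2164 and 835, and 593 and 3408. Akt1, whose reads include those of the plasmid if they were counted there, stood at 103 to 109 CPM in the healthy group, with 1170 to 1673 in the untreated and 671 to 1104 in the treated group. Replicate 4 of each HCC group lay closest to the other HCC group on the first principal component, at 62.1 among untreated livers (others 84.9 and 85.2) and 43.5 among treated livers (others 12.8 and 20.7), with healthy livers at -106 to -101. The bulk tissue cannot tell fewer cells of a type from less RNA per cell.

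Untreated HCC had lower means than healthy livers for all 10 genes, of which 9 were called lower, from 8.03-fold for Slc10a1 to 1.73-fold for Cyp8b1. With miR-22 all 10 means were higher than in untreated HCC, and 7 were called higher, from 3.49-fold for Slc10a1 to 1.71-fold for Baat. Against healthy livers, 7 genes were still called lower with miR-22. A call needed a Benjamini-Hochberg adjusted p under 0.05 over all tested genes and a fold over 1.5. Called lower in untreated HCC were 18.1% of all tested genes, called higher with miR-22 8.32%, and called lower in miR-22-treated HCC than in healthy livers 7.05%. The median log2 fold change of the 10 genes was -1.95, 1.08 and -0.66 in the 3 comparisons. Livers of the groups did not overlap for 8 of the 10 genes between untreated HCC and healthy livers (65.3% of all tested genes), for 7 between the HCC groups (39.3%), and for 8 between miR-22-treated HCC and healthy livers (48.8%). Each pair of these comparisons shares 1 group of livers. Nothing in the labels says how the livers of a group were drawn apart from their separate numbers. The p-values set differences between group means against the spread between livers within groups, estimated from all 9 livers. Each liver was taken as a separate animal.

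**Figure D1:**
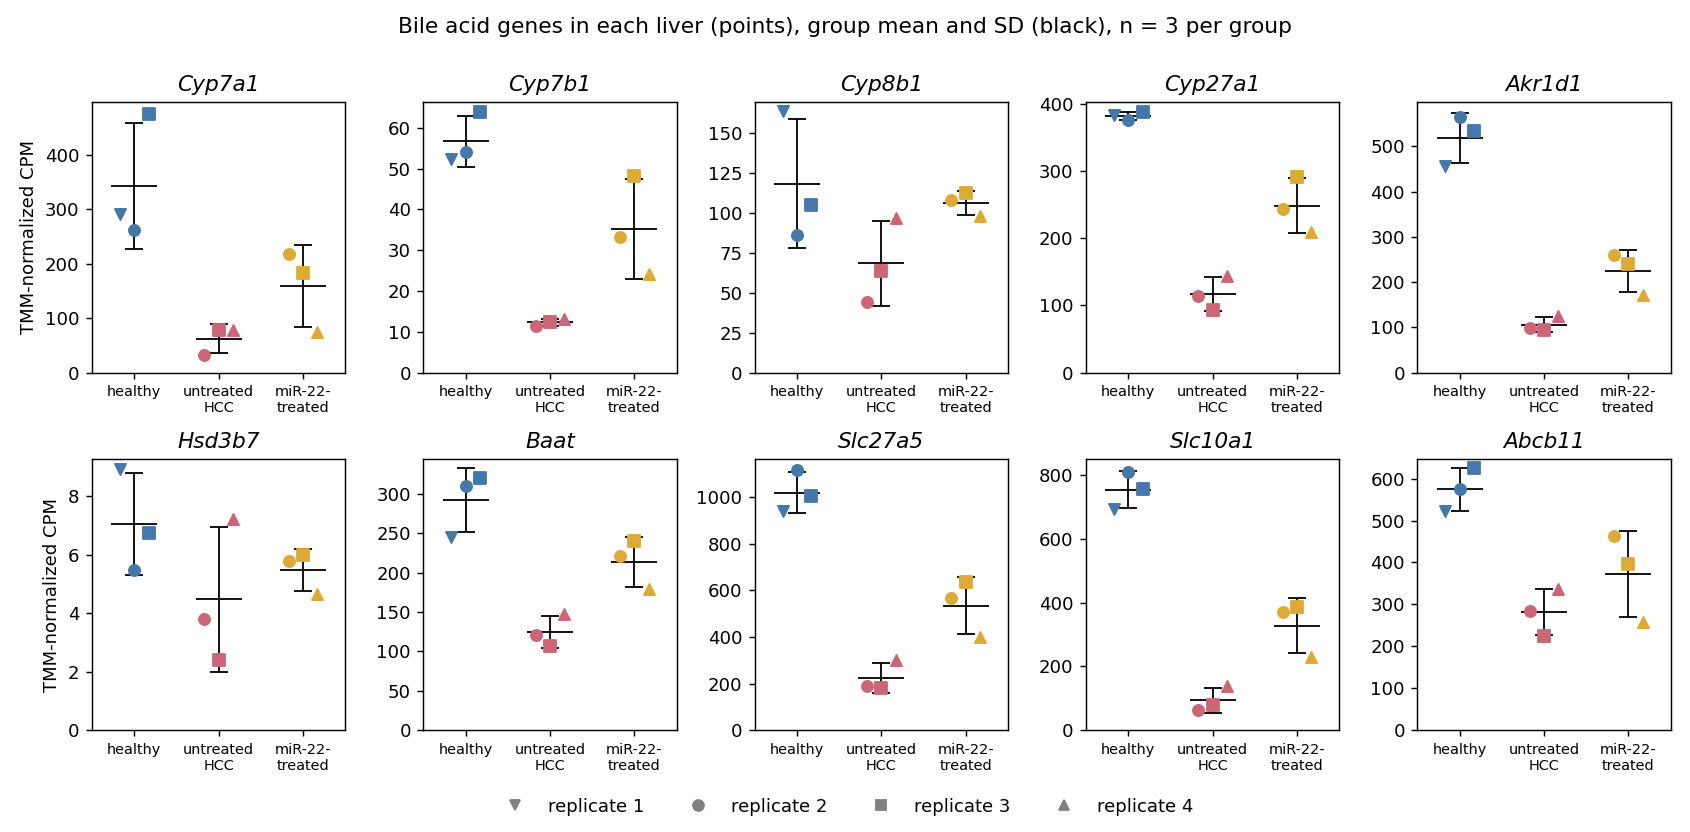
TMM-normalized CPM of the 10 bile acid genes in each liver (points, shape by replicate number) with the mean and SD of each group (black, n = 3), each panel on its own axis from 0. Untreated HCC livers lay below all healthy livers for every gene but Cyp8b1 and Hsd3b7.

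Cyp7a1 (chr4:6265612-6275633, minus strand), the rate-limiting enzyme of the classic pathway, was at 291, 262 and 475 CPM in healthy livers, at 31.4, 77.2 and 77.4 in untreated HCC, and at 218, 182 and 73.5 in miR-22-treated HCC. The untreated livers lay far below all healthy ones, and 2 treated livers lay between the groups while replicate 4 lay within the untreated range. The mean dropped from 343 ± 116 to 62.0 ± 26.5 CPM (SD, n = 3), 5.52-fold (log2 fold change -2.46, 95% interval -3.35 to -1.58, adjusted p = 2.1e-04). With miR-22 it was 158 ± 75.3, 2.54-fold above untreated HCC (log2 1.35, 0.49 to 2.20, adjusted p = 0.027). That rise was lost on leaving out untreated replicate 2 (adjusted p = 0.093) or 3 (0.050), or treated replicate 2 (0.10) or 3 (0.088). The gene stayed 2.17-fold below healthy livers (log2 -1.12, adjusted p = 0.040), a call lost without healthy replicate 1 (adjusted p = 0.052) or 3 (0.16), or treated replicate 3 (0.059) or 4 (0.10), and with DESeq2 (0.073).

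Cyp8b1 (chr9:121743422-121745371, minus strand), the 12α-hydroxylase, changed less. It was at 164, 86.2 and 105 CPM in healthy livers, 44.3, 63.6 and 97.2 in untreated HCC, and 108, 113 and 98.1 in miR-22-treated HCC. Untreated replicate 4 lay above the lowest healthy liver, and the 3 treated livers lay inside the healthy range. The 1.73-fold lower level in untreated HCC passed the test (log2 -0.79, -1.35 to -0.23, adjusted p = 0.019) but not without healthy replicate 1 (-0.50, adjusted p = 0.11) or untreated replicate 2 (-0.55, 0.079) or 3 (-0.74, 0.065), nor when scaled by library totals (-0.37, 0.20). The difference between the HCC groups was not called (log2 0.64, 0.08 to 1.19, adjusted p = 0.094), though it was without untreated replicate 4 (0.98, adjusted p = 0.010). Between treated and healthy livers the interval ran from -0.71 to 0.40. The ratio of Cyp8b1 to Cyp7a1 CPM, which no scaling alters, was 0.563, 0.329 and 0.221 in healthy livers, 1.41, 0.823 and 1.25 in untreated HCC, and 0.496, 0.618 and 1.33 in treated livers. It was higher in every untreated than in every healthy liver (exact permutation test on log2 ratios, two-sided, p = 0.1, the smallest that 3 against 3 allows), and overlapped between the HCC groups (exact permutation p = 0.3). The ratio was chosen after its values were seen, so these p-values are no test of the separation.

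Cyp27a1 (chr1:74752314-74777056, plus strand), the mitochondrial sterol 27-hydroxylase, varied little among healthy livers, at 384, 376 and 388 CPM. Untreated HCC livers held 114, 93.8 and 143 CPM and miR-22-treated ones 244, 292 and 210, so that the 3 groups did not overlap. It fell 3.27-fold in HCC (log2 -1.71 ± 0.16 SE, adjusted p = 1.6e-06), rose 2.13-fold with miR-22 (log2 1.09 ± 0.15, adjusted p = 6.4e-04) and remained 1.54-fold below healthy livers (log2 -0.62 ± 0.15, adjusted p = 0.0066). Without treated replicate 4 that last fold was under 1.5 (log2 -0.52, adjusted p = 0.028).

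Cyp7b1 (chr3:18117411-18297740, minus strand), the oxysterol 7α-hydroxylase that follows it, was at 52.2, 53.9 and 63.8 CPM in healthy livers. It was at 11.3, 12.4 and 13.1 in untreated HCC, the narrowest spread of the 10 genes there (7.27% of the mean), and at 33.3, 48.2 and 24.1 in treated livers. The fall was 4.60-fold (log2 -2.20 ± 0.20, adjusted p = 1.7e-06) and the rise with miR-22 2.85-fold (log2 1.51 ± 0.20, adjusted p = 4.4e-04). The remaining 1.62-fold difference from healthy livers (log2 -0.69, adjusted p = 0.013) was lost without healthy replicate 3 (adjusted p = 0.053) and fell under 1.5-fold without treated replicate 4 (log2 -0.48, adjusted p = 0.031). Relative to Cyp7a1, Cyp7b1 CPM was 0.134 to 0.206 in healthy, 0.161 to 0.361 in untreated and 0.153 to 0.327 in treated livers, with all groups overlapping.

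The ring-modifying enzymes serve both pathways. Akr1d1 (chr6:37506822-37545751, plus strand), the 5β-reductase, was at 457, 566 and 533 CPM in healthy livers, 98.97, 93.9 and 125 in untreated HCC and 259, 241 and 171 in treated livers. No group overlapped another. It fell 4.90-fold in HCC (log2 -2.29 ± 0.17, adjusted p = 2.8e-07) and rose 2.11-fold with miR-22 (log2 1.08 ± 0.16, adjusted p = 8.5e-04), staying 2.32-fold below healthy livers (log2 -1.21 ± 0.16, adjusted p = 1.1e-04). Hsd3b7 (chr7:127399597-127402989, plus strand), the 3β-hydroxy-Δ5-C27-steroid dehydrogenase, had the lowest CPM of the 10, not divided by transcript length, with 54 to 193 counts per library. Its levels were 8.93, 5.48 and 6.76 CPM in healthy livers, 3.80, 2.42 and 7.21 in untreated HCC and 5.78, 5.99 and 4.66 in treated livers, and all groups overlapped. None of its differences was called (log2 -0.64, -1.35 to 0.06, adjusted p = 0.11 in HCC, and 0.28, -0.44 to 0.99, adjusted p = 0.59 with miR-22). Without untreated replicate 4 it was called lower in HCC (log2 -1.18, adjusted p = 0.0033). Its exons share 2208 bases with 9430064I24Rik on the opposite strand, which had 56 to 145 counts per library, and since the libraries carried no strand the reads of this stretch cannot be told apart.

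Conjugation takes 2 steps. Slc27a5 (chr7:12722273-12732137, minus strand), the bile acyl-CoA synthetase that activates bile acids, was at 941, 1115 and 1004 CPM in healthy livers, 191, 182 and 300.4 in untreated HCC and 569, 637 and 399 in treated livers. Baat (chr4:49489289-49506563, minus strand), which transfers taurine or glycine onto the CoA ester, was at 246, 310.0 and 321, then 121, 107 and 147, then 221, 241 and 179 CPM. For both genes no group overlapped another. Slc27a5 fell 4.54-fold in HCC (log2 -2.18, -2.64 to -1.73, adjusted p = 2.5e-06), rose 2.38-fold with miR-22 (log2 1.25, adjusted p = 0.0013) and stayed 1.91-fold below healthy livers (log2 -0.93, adjusted p = 0.0034). Baat fell 2.34-fold (log2 -1.23, -1.55 to -0.90, adjusted p = 1.8e-05) and rose 1.71-fold with miR-22 (log2 0.77, adjusted p = 0.0032). With miR-22 it differed from healthy livers by less than 1.5-fold (log2 -0.45, -0.77 to -0.13, adjusted p = 0.031), so it was not called there. Scaled by library totals its rise with miR-22 was under 1.5-fold (log2 0.54, adjusted p = 0.0072). The intervals of the 2 genes' changes in HCC did not overlap.

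Slc10a1 (chr12:80996372-81015479, minus strand) encodes NTCP, the sodium-dependent carrier that brings conjugated bile acids from blood into hepatocytes. It was at 696, 812 and 756 CPM in healthy livers, 64.4, 79.8 and 138 in untreated HCC and 371, 386 and 228 in miR-22-treated HCC, without overlap between groups. This was the strongest change of the 10 genes in both directions, a fall of 8.03-fold (log2 -3.00, -3.59 to -2.42, adjusted p = 1.4e-06) and a rise of 3.49-fold (log2 1.80, 1.25 to 2.36, adjusted p = 6.7e-04). It stayed 2.30-fold below healthy livers (log2 -1.20, adjusted p = 0.0026). Its exons share 268 bases with Srsf5, a splicing factor gene on the opposite strand, which itself differed in the same directions (log2 -1.30 in HCC, adjusted p = 2.6e-06, and 0.64 with miR-22, adjusted p = 0.0033).

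Abcb11 (chr2:69068544-69173315, minus strand), the bile salt export pump BSEP of the canalicular membrane, was at 522, 575 and 626 CPM in healthy livers, 284, 225 and 337 in untreated HCC and 462, 396 and 259 in treated livers. Treated replicates 2 and 3 lay above all untreated ones and replicate 4 lay among them. It fell 2.04-fold in HCC (log2 -1.03, -1.45 to -0.60, adjusted p = 6.6e-04). Its difference between the HCC groups was not called (log2 0.40, -0.02 to 0.82, adjusted p = 0.16), but was without treated replicate 4 (0.61, adjusted p = 0.015). The 1.54-fold lower level than in healthy livers (log2 -0.63, adjusted p = 0.025) was lost without healthy replicate 2 (adjusted p = 0.060) or 3 (0.078) or treated replicate 4 (0.072). The ratio of Slc10a1 to Abcb11 CPM, uptake to export, was 1.33, 1.41 and 1.21 in healthy livers, 0.227, 0.355 and 0.409 in untreated HCC and 0.803, 0.974 and 0.882 in treated livers. No liver of one group reached the range of another, and the mean log2 ratio differed by -2.04 between untreated HCC and healthy livers and by 1.46 between the HCC groups (exact permutation test, two-sided, p = 0.1 in both, the smallest possible). These 2 ratios, with that of Cyp7b1 to Cyp7a1, were the 3 computed, in 9 comparisons, so that none could pass an adjustment. All 3 were chosen after their values were seen, so the p-values describe the separation and are no test of it.

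**Figure D2:**
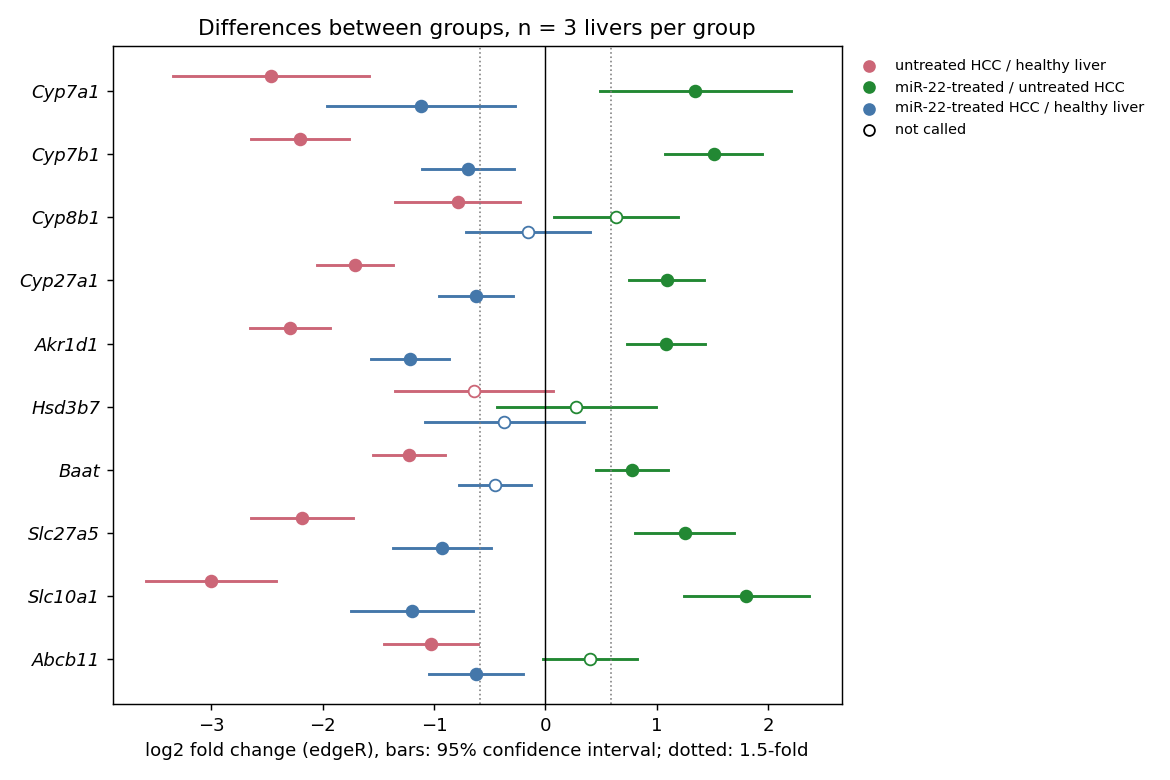
Log2 fold change of each bile acid gene in the 3 comparisons (points) with 95% confidence intervals (bars), open where not called, dotted lines at 1.5-fold, n = 3 livers per group. Slc10a1 has the largest change in HCC (-3.00) and with miR-22 (1.80), and Hsd3b7 is open in all 3.

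Replicate 4 stood apart in each HCC group. Untreated replicate 4 had the highest level of its group for 10 of the 10 genes, and treated replicate 4 the lowest of its group for 10 of the 10. The other livers were not ordered alike, the lowest untreated liver being replicate 2 for 4 genes and replicate 3 for 6, and the highest treated liver replicate 2 for 3 and replicate 3 for 7. In healthy livers no replicate was highest for more than 5. As a percentage of the healthy mean, the median over the 10 genes was 24.8, 23.5 and 33.5 in the untreated livers and 63.7, 72.6 and 43.8 in the treated ones, where the genes ranged from 21.5% (Cyp7a1 in replicate 4) to 95.2% (Cyp8b1 in replicate 3). The genes were measured in the same libraries and are not independent. Without treated replicate 4 the genes called higher with miR-22 numbered 8 and those called lower than in healthy livers 3, and without healthy replicate 3 the latter were 4. Without untreated replicate 4 the first number was also 8, and all 10 genes were called lower in HCC. Without replicate 2 or 3 of either HCC group the first number was 6.

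**Figure D3:**
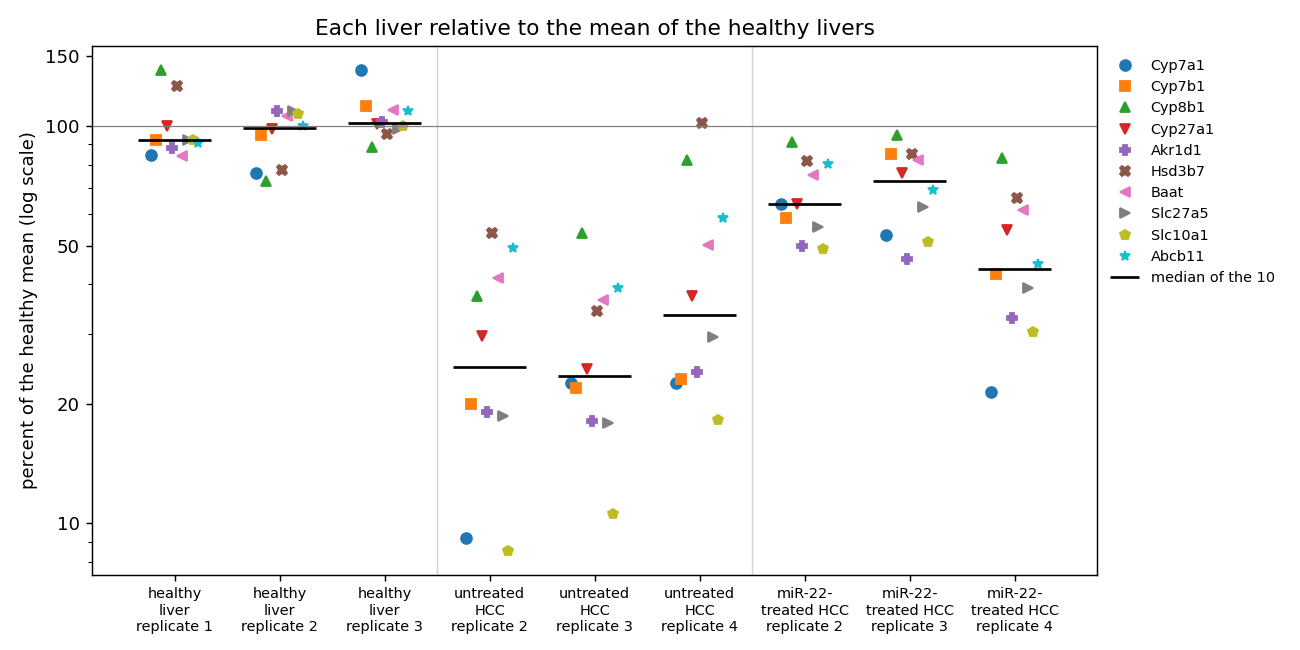
Level of each bile acid gene in every liver as a percentage of the mean of the healthy livers (log axis), with the median of the 10 genes as a black line. The medians of the untreated livers lie between 23.5% and 33.5%, and those of the treated livers between 43.8% and 72.6%.

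Levels were compared between genes per kilobase of the canonical transcript. In healthy livers the order of mean CPM per kilobase was Slc10a1 (501 ± 38.7), Slc27a5 (434 ± 37.6), Akr1d1 (181 ± 19.6), Cyp27a1 (168 ± 2.74), Baat (140 ± 19.5), Abcb11 (108 ± 9.71), Cyp7a1 (82.1 ± 27.7), Cyp8b1 (60.7 ± 20.7), Cyp7b1 (5.10 ± 0.56) and Hsd3b7 (3.75 ± 0.93). Neighbours overlapped between livers except below Slc27a5, Cyp27a1, Baat and Cyp8b1. In untreated HCC Slc10a1 (62.4 ± 25.6) overlapped Baat (60.0 ± 9.82), while every liver was higher for Slc27a5 (95.6 ± 28.0) than any was for Baat. Neighbours among the 7 genes down to Cyp8b1 (35.05 ± 13.7) overlapped. Gaps without overlap lay below Cyp8b1, Cyp7a1 (14.9 ± 6.35) and Hsd3b7 (2.38 ± 1.31), with Cyp7b1 (1.11 ± 0.081) last. With miR-22 both Slc27a5 (228 ± 52.1) and Slc10a1 (218 ± 57.8) stood above Cyp27a1 (109 ± 18.0), the next in order, without overlap.

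Likeness was measured as the root-mean-square difference of mean-centred log2 CPM over the 9 livers, so that 0 means the same pattern. The closest gene outside the 10 was Car5a for Slc27a5 (0.064), Akr1c6 for Baat (0.065), C8g for Cyp27a1 (0.071), Acat3 for Abcb11 (0.084), Acss3 for Akr1d1 (0.086), Ces2a for Slc10a1 (0.092), Asl for Cyp7b1 (0.16), Serpina11 for Cyp8b1 (0.20), Gm10767 for Hsd3b7 (0.21) and Slc2a5 for Cyp7a1 (0.30). Car5a averaged 162, 34.4 and 81.6 CPM in the healthy, untreated and treated livers, and Ces2a 397, 49.7 and 157. Among the 10 themselves, Akr1d1 and Slc27a5 were closest (0.16), then Baat and Abcb11 (0.21), and Hsd3b7 and Slc10a1 farthest apart (1.01). Cyp7a1 had no close match, its nearest fellow member being Slc10a1 (0.47).

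The other genes of synthesis followed the members in part. Of 18 such genes, all tested, 14 were called lower and 1 higher in untreated HCC (22.7% of all tested genes were called higher), with a median log2 fold change of -0.99. The 1 higher gene was Ch25h, the cholesterol 25-hydroxylase, which had at most 29 counts per library, at 0 to 0.063 CPM in healthy livers and 0.75 to 1.30 in untreated HCC, and which a minimum of 10 counts in every library removed. Por, the reductase that supplies electrons to microsomal P450 enzymes, fell from 571 to 668 CPM in healthy livers to 91.1 to 131 (log2 -2.52 ± 0.16, adjusted p = 1.3e-07). Fdx1, the ferredoxin that does so for mitochondrial P450 enzymes such as CYP27A1, fell by 1.03 on the log2 scale. Cyp2c70, which makes muricholic acids in mice, fell from 739 to 904 CPM to 187 to 255 (log2 -1.87 ± 0.20, adjusted p = 5.9e-06). Of genes of peroxisomal side-chain shortening, Abcd3 was at -1.31 and Acox2 at -0.66, the latter not called without untreated replicate 3 (-0.57). Stard5, a sterol-binding protein gene, and Slc27a2, an acyl-CoA synthetase gene, were at -1.84 and -1.66. With miR-22, 9 of the 18 were called higher by edgeR, against 8.32% of all tested genes. The 0 called lower lay near the background, 5.47% of all tested genes. Also, 0 of the 18 had a negative fold change at an unadjusted p under 0.05 or were called lower by DESeq2. Por rose 1.85 (adjusted p = 2.8e-05), Stard5 1.20, Cyp2c70 1.19, Akr1c14, the 3α-hydroxysteroid dehydrogenase, 1.02, and Fdx1 0.63, while Acox2 was at 0.36 (adjusted p = 0.028, under 1.5-fold). The rise of Fdx1 was under 1.5-fold without replicate 3 of the untreated (0.54) or treated livers (0.56), as was that of Abcd3 (0.61, and 0.54 without either), and both were with library totals (0.40 and 0.37). Against healthy livers 7 were still lower and 1 higher (16.9% of all tested genes were called higher), among them Abcd3 (-0.70), Amacr (-0.68), Slc27a2 (-0.68) and Cyp46a1 (-1.11). In that comparison Amacr (-0.57) and Cyp2c70 (-0.46) were under 1.5-fold without treated replicate 4 and Por (-0.55) without treated replicate 2, Cyp2c70 also lost its call without healthy replicate 3 (adjusted p = 0.060), and so did Ch25h, the 1 higher gene (0.058), which lost it without treated replicate 2 as well (0.057). Scaled by library totals, 9 and not 14 were lower in HCC and 1 and not 7 lower with miR-22 than in healthy livers. With edgeR's glmTreat, which tests against the 1.5-fold threshold itself, 5 and not 9 were higher with miR-22 than in untreated HCC and 0 and not 7 lower than in healthy livers.

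Of 16 transport genes tested of 17 (Slc51a had at most 9 counts), 8 were called lower and 4 higher in untreated HCC, against 18.1% and 22.7% of all tested genes, so that the higher count lay near the background, with a median log2 fold change of -0.65. The listed organic anion transporters of the Slco family all fell: Slco1b2 from 1666 to 2196 CPM to 425 to 634 (log2 -1.88 ± 0.19, adjusted p = 4.2e-06), with log2 fold changes of -1.73 for Slco1a1, -1.78 for Slco2b1 and -1.64 for Slco1a4. At the canalicular membrane, Abcc2, the conjugate pump MRP2, fell by 0.92, and the sterol transporters Abcg5 and Abcg8 were at -1.51 and -2.40. Abcb4, the phospholipid flippase, was not called in any comparison (log2 -0.20, -0.48 to 0.08 in HCC). The sinusoidal pump Abcc4 (MRP4) went the other way, from 6.76 to 8.95 CPM in healthy livers to 20.7 to 34.7 in untreated HCC (log2 1.87 ± 0.25, adjusted p = 4.2e-05), as did Ephx1, the microsomal epoxide hydrolase (1.24), Abcg2, a canalicular efflux pump (0.94), and Slc10a2, the sodium-dependent carrier of ileum and cholangiocytes (0.64). The Slc10a2 call was lost without healthy replicate 1 (0.40, adjusted p = 0.053) or untreated replicate 2 (0.48, adjusted p = 0.082). Abcc3 (-0.51) and Slc51b (0.29) were not called, though Abcc3 was without healthy replicate 3 (-0.59) or untreated replicate 4 (-0.69). With miR-22, 7 were called higher, against 8.32% of all tested genes. They were Abcg8 (1.77), Slco1a1 (1.39), Slco1b2 (1.25), Abcg5 (1.04), Slco2b1 (0.88), Slco1a4 (0.75) and Abcc2 (0.60). The Abcc2 fold lay just past 1.5 and was under it with DESeq2 size factors (0.57), without untreated replicate 3 (0.56) or treated replicate 2 (0.55) or 3 (0.51), and with library totals (0.36). Library totals also brought the rise of Slco1a4 (0.52) and the fall of Abcc2 in HCC (-0.49) under 1.5-fold. By edgeR 0 of the 16 were called lower, against 1 at an unadjusted p under 0.05 and 1 by DESeq2, both Abcc4 (log2 -0.61, adjusted p = 0.079), which was also called without replicate 4 of either HCC group, and when scaled by library totals (-0.85). With glmTreat 3 of the 7 were called. Against healthy livers 3 were still lower, Slco1a4 (-0.89), Slco2b1 (-0.90) and Slco1b2 (-0.62), and the 4 higher ones were Abcc4 (1.26), Ephx1 (1.05), Abcg2 (1.05) and Slc10a2 (1.00), against 7.05% and 16.9% of all tested genes, and with glmTreat 0 and 3 were called. The Slco1b2 call there was lost without healthy replicate 2 (adjusted p = 0.077) or 3 (0.055) or treated replicate 4 (-0.46, 0.071), and was under 1.5-fold with library totals (-0.45).

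Among regulators of the pathway 11 of 19 tested (Fgf15 and Gpbar1 did not pass the filter) were called lower and 2 higher in untreated HCC, against 18.1% and 22.7% of all tested genes, with a median log2 fold change of -0.72. Nr1h4, the receptor FXR, was at 133 to 140 CPM in the healthy group, with 64.0 to 82.0 in the untreated and 107 to 112 in the treated group and no overlap. It fell by 0.91 in HCC (adjusted p = 5.7e-06) and was 0.60 higher with miR-22 (adjusted p = 0.0011), which was under 1.5-fold with DESeq2 size factors (0.58) or without untreated replicate 2 (0.52). Nr0b2, the FXR-induced repressor SHP, was not called, with 81.3, 27.3 and 18.0 CPM in the healthy livers, the first apart from the rest, and 24.9 to 37.0 in the HCC livers, though without healthy replicate 3 it was called lower in treated than in healthy livers (-0.98, adjusted p = 0.041). Nr5a2, an activator of Cyp7a1 and Cyp8b1, was not called in any comparison (log2 -0.20, -0.44 to 0.05 in HCC). Hnf4a, the hepatocyte factor for which a site type is shown above in Cyp8b1, fell by 0.71 in HCC (adjusted p = 3.9e-04) and was at 0.30 with miR-22 (adjusted p = 0.11). Of the receptor of FGF15, Fgfr4, and its coreceptor, Klb, the latter fell by 1.09 (adjusted p = 1.4e-04), and Fgfr4 was not called (log2 0.45, adjusted p = 0.0058, under 1.5-fold). Fgf15 itself had 0 counts in all livers. The receptors Nr1i3 (CAR), Ppara and Nr1i2 (PXR) fell, with log2 fold changes of -2.91, -1.92 and -1.11, and rose with miR-22 by 1.59, 1.44 and 0.82. Mafg, a small Maf factor that represses bile acid synthesis genes, fell by 1.18, and S1pr2, a receptor for conjugated bile acids, rose by 1.77. The other higher gene was the vitamin D receptor gene Vdr, with at most 27 counts per library, at 0 to 0.44 CPM in healthy livers and 0.60 to 1.21 in untreated HCC. Its call was lost without healthy replicate 1 (adjusted p = 0.091) or 3 (0.086) or untreated replicate 3 (0.092). In all, 6 regulators were called higher with miR-22, against 8.32% of all tested genes, and 1 lower, Zfp36l1, an RNA-binding protein gene (-0.61). The 6 included Foxo1 (0.99, adjusted p = 0.018), at 29.6, 82.1 and 44.6 CPM in treated and 23.4 to 29.9 in untreated livers. Its call was lost without untreated replicate 2 (adjusted p = 0.074) or 3 (0.071) or treated replicate 3 (0.51, adjusted p = 0.065). Compared with healthy livers, 4 regulators were lower with miR-22 (Nr1i3, Mafg, Klb and Prox1) and 1 higher, against 7.05% and 16.9% of all tested genes. The 1 lower of 19 was near the 5.47% of all tested genes called lower with miR-22, and Zfp36l1 lost its call without untreated replicate 2 (-0.56) or 3 (-0.56) or treated replicate 3 (-0.52, adjusted p = 0.055). Klb was under 1.5-fold below healthy livers without healthy replicate 2 (-0.58) or treated replicate 4 (-0.50), and Prox1 without treated replicate 3 (-0.51). Scaled by library totals, 5 and not 11 were lower in HCC, the fall of Nr1h4 (-0.48) and Hnf4a (-0.29) and the rises of Nr1h4 (0.37) and Nr1i2 (0.58) were under 1.5-fold, and Fgfr4 was called higher in HCC (0.88). Below healthy livers 1 and not 4 was called with library totals, Mafg (-0.46), Klb (-0.48) and Prox1 (-0.43) being under 1.5-fold, and 1 with glmTreat, which called 2 and not 6 higher and 0 lower with miR-22.

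**Figure D4:**
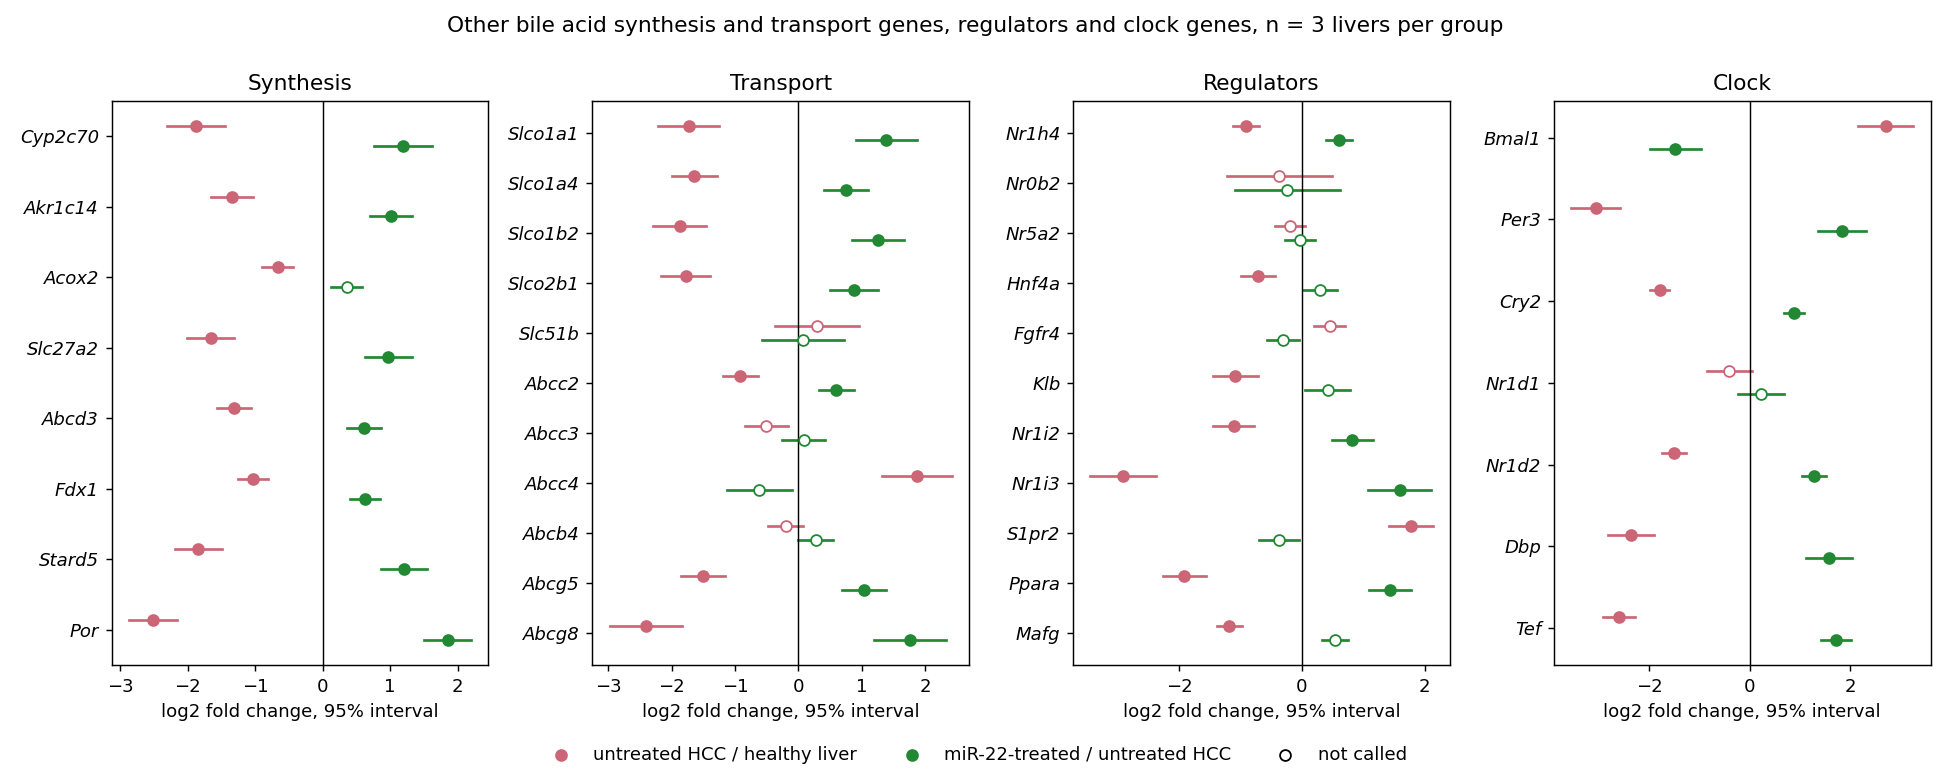
Log2 fold changes with 95% confidence intervals of other synthesis and transport genes, regulators and clock genes in untreated HCC over healthy livers (red) and miR-22-treated over untreated HCC (green), open where not called, n = 3 livers per group. Abcc4 (1.87), S1pr2 (1.77) and Bmal1 (2.70) lie on the side opposite to most genes in HCC.

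Markers of some cell types differed between these groups. The 10 hepatocyte markers summed to 153600 to 164200 CPM (healthy), 94370 to 110500 (untreated) and 121800 to 136800 (treated), the order kept below. Without Alb the other 9 summed to 53450 to 61220, 52160 to 59380 and 60210 to 63840 CPM, and the ranges of untreated and healthy livers overlapped. Tf made up the largest part of that sum, with means of 19969 CPM in healthy livers and 30417 in untreated HCC. Of the 10, 5 were called lower in HCC (Alb, Ttr, Apoa1, Fgb and Serpinc1) and 2 higher (Tf and Hpx), with a median log2 fold change of -0.61. Alb fell by 1.14, less than 7 of the 10 bile acid genes. The 8 cholangiocyte or progenitor markers summed to 51.0 to 62.7, 3433 to 6408 and 1623 to 2799 CPM, of which Spp1 made up most in the HCC livers, 7 were called higher in HCC, and Krt19 was not (log2 0.89, adjusted p = 0.15). The 8 stellate cell or fibroblast markers summed to 269.6 to 302, 900.4 to 1044 and 686 to 828 CPM, with 5 called higher and 2 lower, Lrat (-1.50, adjusted p = 0.0013) and Dcn (-0.61, adjusted p = 0.0017), against 22.7% and 18.1% of all tested genes. With miR-22, where 8.32% of all tested genes were called higher and 5.47% lower, 2 hepatocyte markers were called higher, 6 cholangiocyte or progenitor markers lower, and 2 stellate cell or fibroblast markers lower and 2 higher. Macrophage markers summed to 367 to 443, 465 to 507 and 527 to 554 CPM, with 3 of 8 called higher in HCC, against 22.7% of all tested genes. Endothelial markers summed to 357 to 446, 237 to 292 and 304 to 386, with 3 of 8 called lower, against 18.1%. Lymphocyte markers summed to 5.66 to 7.54, 6.84 to 8.42 and 6.95 to 10.1, with overlapping ranges and 1 of 7 tested called lower and 1 higher, no more than the shares of all tested genes. Neutrophil markers summed to 1.76 to 4.59, 17.9 to 23.0 and 17.0 to 25.7, with all 4 tested of 8 called higher, while Ly6g, a defining one, had at most 2 counts. Of 4 ileum markers Vil1, which epithelia share, was called higher in HCC (log2 3.73), Fabp6 and Lct had at most 1 count and Cdx2 had 0 in all livers. The part of these shifts in the changes of the bile acid genes was not tested.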

How the data were processed

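Per the labels and the methods, the authors extracted RNA from whole livers, made libraries that do not keep the strand, sequenced read pairs, checked them with FastQC 0.11.7, quantified them with Salmon on GRCm39, imported gene values with tximport and used DESeq2 1.18. The methods name a GENCODE release that belongs to an older build, so the annotation version is uncertain. The authors deposited whole-number counts per gene, not normalized, and a second table of signal values, which are the same counts divided by a factor per library. From the latter 100% of values came back as whole reads (tolerance 0.01), 100% equal to the counts, so the counts were used.

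The test was edgeR's quasi-likelihood F test, two-sided (edgeR 4.0.16 under R 4.3.3), on genes kept by filterByExpr with TMM factors and all 9 livers in 1 fit, with Benjamini-Hochberg adjustment over all tested genes. Standard errors are the log2 fold change over the root of F, and 95% intervals use the moderated degrees of freedom. Alternatives were DESeq2 1.42.0, limma 3.58.1 with a prior count of 1, other size factors, other filters, glmTreat, a replicate block and each liver left out, and, added after seeing the data, library totals, counts recovered from the signal values and the same settings for the gene lists. The edgeR code was tested on simulated data. Common dispersion was 0.0206. Gene positions, lengths and 3′ UTRs came from GENCODE M39 on GRCm39, matched by gene ID without its version, and Bmal1 and Tf were found as Arntl and Trf. Figures used Python 3.11.15 with matplotlib 3.10.9.

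The 10 genes and all gene lists were chosen with earlier results of these data known. Named genes were the 10, a fixed set of other bile acid genes, and of each list up to 4 called genes of smallest p per comparison, plus the nearest genes by pattern. Ch25h, Slc10a2, Vdr, Zfp36l1, Foxo1, Cry1, Akt1, the genes that overlap Hsd3b7 and Slc10a1, and the markers were named outside it, and these and the 3 ratios were chosen after their values were seen.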

Additional observations from a re-analysis of the deposited data

How the results depend on the processing

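No call of the 10 bile acid genes changed direction under any alternative run. The counts of members called lower in HCC and higher with miR-22 stayed within 1.5 times. The 7 genes called lower in miR-22-treated HCC than in healthy livers became 2 with glmTreat, 3 with library totals and 3 to 7 with each liver left out, the lowest without treated replicate 4, followed by 4 without healthy replicate 3. Genes called between the HCC groups, 2167 in all, were 468 with glmTreat, which tests against the 1.5-fold threshold itself, and 1433 to 2660 with each liver left out, the lowest without treated replicate 3, and those called between treated and healthy livers went from 3772 to 2010 with glmTreat. Counts recovered from the signal values gave the same 6417, 2167 and 3772 calls. Without a filter on low counts Hsd3b7 was called lower in HCC (-0.63, adjusted p = 0.014) and Cyp8b1 higher with miR-22 (0.63, adjusted p = 6.7e-07). The main fit gave nearly the same folds for both (-0.64 and 0.64, adjusted p = 0.11 and 0.094). Nr0b2, with healthy livers from 18.0 to 81.3 CPM, went from adjusted p = 0.26 to 9.8e-06 in treated over healthy livers, at -0.60 in both fits. The small p-values of the unfiltered run were therefore not relied on. Library totals moved the share of lower calls from 44.3% to 19.95%, from 39.6% to 72.2% and from 29.4% to 14.8% in the 3 comparisons.

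Same-numbered HCC livers were not more alike than others: their deviations correlated at -0.23 to -0.12, all below the -0.019 to 0.13 of other pairs. With 3 such pairs, whether the numbers stand for a pairing cannot be decided. With the replicate block, 8, 6 and 4 members were called in the 3 comparisons, and Nr0b2 was called higher in HCC (0.60, adjusted p = 0.036) where the fit without it gave -0.37. With 3 livers a group and 54 counts at the least, small differences of Hsd3b7 were not detectable.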

Other observations

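Genes of the circadian clock, which drives daily rhythms of bile acid synthesis in liver, were also followed. Of 16 such genes, 9 were called lower and 4 higher in untreated HCC, against 18.1% and 22.7% of all tested genes, and with miR-22 7 were called higher and 3 lower, against 8.32% and 5.47%. The 4 higher in HCC lay near the background. Cry1, 1 of the 3 lower with miR-22 (log2 -0.65, adjusted p = 0.042), lost its call without untreated replicate 2 (adjusted p = 0.11), 3 (0.11) or 4 (0.057) or treated replicate 2 (0.13) or 3 (0.16), which left 2. Bmal1, an activator of the clock, was at 2.83, 2.02 and 3.02 CPM in healthy livers, 21.6, 13.3 and 16.6 in untreated HCC and 6.63, 4.27 and 7.47 in miR-22-treated HCC (log2 2.70 and -1.48, adjusted p = 1.9e-06 and 0.0010). Dbp, a D-box factor that acts on Cyp7a1, was at 167, 139 and 119 CPM, then 18.6, 37.1 and 27.0, then 87.2, 91.8 and 68.7 (log2 -2.36 and 1.58, adjusted p = 1.5e-06 and 4.3e-04). Tef, of the same family, went from 323 to 367 CPM to 45.2 to 67.8 and then to 179 to 210.1, Per3 from 142 to 175 to 13.1 to 28.8 and then to 64.4 to 78.4, and Cry2 from 70.4 to 83.0 to 21.3 to 23.5 and then to 40.0 to 42.9. Nr1d2 fell by 1.51 and rose by 1.28, while Nr1d1, the repressor REV-ERBα, was not called (45.9 to 96.7 CPM over all livers), though it was called lower in HCC without untreated replicate 4 (log2 -0.60, adjusted p = 0.034). The hour of collection is not given in the sources used here, and its part in these values was not tested.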
